A study of Mus musculus with 24 samples.

Results

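Hearts that carried the αMHC-Cre driver and, by their label, nothing else were compared with hearts that carried the floxed Fkbp1a alleles and no Cre. Each side had 6 libraries, 12 of the 24 in the series, chosen by the genotype label alone. The driver group is labelled MHC CRE Only and the floxed group FKl/l. The other libraries, used here for the estimate of the spread and for levels set side by side, are FKl/l MCK+ (floxed, with Cre under the muscle creatine kinase promoter) and FKl/l MHC+ (floxed, with Cre under the α-myosin heavy chain promoter), 6 of each. RNA came from whole mouse hearts, and the labels place 3 libraries of every genotype in batch 1 and 3 in batch 2. They give no age, sex, strain or founder line. Nor do they say whether libraries are different animals, so the spread behind each p-value is that between libraries and may be technical. The groups differ both in the transgene and in the floxed alleles, and these cannot be told apart in this comparison. Floxed alleles are shared by FKl/l, FKl/l MCK+ and FKl/l MHC+, and the αMHC-Cre transgene by MHC CRE Only and FKl/l MHC+.

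Cre recombinase is a phage enzyme that recombines DNA between loxP sites, and a floxed allele is a gene with such sites around the part to be removed. An αMHC-Cre transgene places Cre under the promoter of Myh6, the gene of α-myosin heavy chain, which is active in cardiomyocytes. Mice with the driver and no floxed gene serve as controls because Cre itself has been linked to DNA damage and to heart dysfunction in some cardiac driver lines. Fkbp1a encodes FKBP12, an immunophilin that binds to ryanodine receptors, the calcium release channels of muscle, and is the target of FK506 and rapamycin.

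The start of the endogenous Myh6 gene is shown because its promoter is the one the driver is named for, and the labels do not give the stretch used in the transgene. It is on the minus strand of chromosome 14 (RefSeq, GRCm38.p6, chr14:54966558-54966857), from 250 bases before the start to 50 after it. Capitals mark GGAATG, the core of the M-CAT element, and TATAAA, the core of the TATA box. Both strands were searched, and the 2 motifs do not overlap. Of 32851 promoter windows of 300 bases in the RefSeq table, 14.7% hold GGAATG and 13.6% hold TATAAA on either strand.
Myh6: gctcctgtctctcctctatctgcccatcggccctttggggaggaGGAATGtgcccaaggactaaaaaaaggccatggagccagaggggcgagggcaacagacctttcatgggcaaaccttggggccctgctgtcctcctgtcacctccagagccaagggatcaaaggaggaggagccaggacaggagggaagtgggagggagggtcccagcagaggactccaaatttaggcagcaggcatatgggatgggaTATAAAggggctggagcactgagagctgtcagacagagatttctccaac

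Levels are given as CPM, counts scaled to a common library size. The 12 libraries held 32861129 to 39981213 counts in genes, and mitochondrially encoded transcripts took 25.7 to 36.2% of them. In batch 1 that share was 32.0 ± 4.23% in FKl/l and 35.1 ± 1.18% in MHC CRE Only (SD, n = 3 each). In batch 2 it was 29.1 ± 0.204% and 26.3 ± 0.595%, so the order of the groups differed between batches. All 10 cardiomyocyte markers were detected, with a summed level of 47297 to 56971 CPM in FKl/l and 45052 to 56841 in MHC CRE Only. Markers of lung and airway epithelium stood apart in 2 libraries, with a summed level of 1306 CPM in MHC CRE Only 2-3 and 528 in FKl/l 1-1, against 1.1 to 99.8 in the other 10. None of the 20 airway markers was at 0 in all 12 libraries. The summed level of Y-linked transcripts was 75.1 to 89.8 CPM in FKl/l and 53.1 to 69.3 in MHC CRE Only, with no overlap. Xist, the X-inactivation transcript of female cells, was at most 0.744 CPM in FKl/l and 0.636 CPM in MHC CRE Only. The part of these differences in the results below was not tested, beyond the fits that left libraries out or added a Y-linked term.

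Fkbp1a (ENSMUSG00000032966; GRCm38, chromosome 2, 151542483 to 151561692, plus strand) checks the labels, since neither group should have lost it. Its lowest, median and highest level was 121, 127 and 147 CPM in FKl/l and 81.8, 128 and 138 CPM in MHC CRE Only. The library labelled MHC CRE Only 1-3 had the 81.8 CPM, and the other 5 lay between 122 and 138. That value is just above the highest library of the floxed genotypes with a Cre, 81.1 CPM in FKl/l MCK+ and 75.7 in FKl/l MHC+, so the level goes against the label. At 4 of the genes described below, that library lay with its own group and outside all 18 floxed libraries (at Zcchc3 only just). It had 855 CPM for Pygb, 0.992 for Slc52a3, 5.31 for Zcchc3 and 3.68 for Rem1. These 4 were picked because every driver library, this one included, lay outside the 18, so they cannot check its label. The group difference in Fkbp1a did not pass the test (log2 fold change -0.09, SE 0.123, with an adjusted p of 0.813 in the edgeR fit). Its sign turned without MHC CRE Only 1-3 (0.02). Fkbp1b, which encodes the paralog FKBP12.6, had at most 0.772 CPM in a library of either group (log2 fold change 0.33, SE 0.344, adjusted p = 0.739). Myh6 itself, whose promoter the driver uses, had median levels of 17420 CPM in FKl/l and 17239 CPM in MHC CRE Only (log2 fold change -0.06, SE 0.0853, adjusted p = 0.835).

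Few genes passed the test between driver and floxed hearts, and nearly all of them lie beside Fkbp1a. Of 16018 genes tested, 7 were called at an adjusted p under 0.05 (0.0437%), 5 higher and 2 lower in MHC CRE Only, and 1 of them changed at least 2-fold. The called genes are Pygb, Slc52a3, Zcchc3, 6820408C15Rik, Rem1 and Asxl1 on chromosome 2, and Nt5dc2 on chromosome 14. The first 6 span 2.62 Mb of the Fkbp1a chromosome, from 150786735 to 153404007, in which 41 genes were tested. At an unadjusted p under 0.05 there were 2069 genes (12.9%), 1238 higher and 831 lower. The 6 libraries of one group did not overlap those of the other in 100 genes (0.624%), 52 higher and 48 lower in MHC CRE Only. The median absolute log2 fold change over all genes was 0.117, and the median was 0.00.

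Pygb, which encodes the brain form of glycogen phosphorylase, the enzyme that releases glucose units from glycogen, rose 1.62-fold (ENSMUSG00000033059; chromosome 2, 150786735 to 150831758, plus strand). The lowest, median and highest library had 410, 546 and 725 CPM in FKl/l and 816, 883 and 943 CPM in MHC CRE Only. Every driver library was above every floxed library, and also above those of FKl/l MCK+ (434, 644 and 704 CPM) and FKl/l MHC+ (459, 543 and 648 CPM). The test gave a log2 fold change of 0.70 (SE 0.0878, adjusted p = 0.000168). The size differed between batches, 0.96 in batch 1 and 0.44 in batch 2 (adjusted p of the difference = 0.0296). Without the batch term the call was lost (adjusted p = 0.081).

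Slc52a3, a riboflavin transporter of the plasma membrane, had the largest fold of the 7 called genes, at a low level (ENSMUSG00000027463; chromosome 2, 151996511 to 152009258, plus strand). It had 0.139, 0.306 and 0.446 CPM in FKl/l, which is 6 to 16 counts a library. In MHC CRE Only it had 0.992, 1.39 and 1.84 CPM, or 34 to 61 counts. The groups did not overlap, and FKl/l MCK+ and FKl/l MHC+ reached at most 0.436 and 0.443 CPM. The rise was 4.71-fold (log2 fold change 2.24, SE 0.334, adjusted p = 0.00188), with log2 fold changes of 2.15 and 2.32 in the batches.

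Zcchc3 and 6820408C15Rik are neighbours that start 560 bases apart in GENCODE M21 and are read in opposite directions, and they moved in opposite directions. Zcchc3 encodes a CCHC-type zinc finger protein that binds nucleic acids and takes part in the sensing of viral RNA and DNA (ENSMUSG00000074682; chromosome 2, 152411955 to 152415027, minus strand). It had 3.48, 4.01 and 5.30 CPM in FKl/l and 5.31, 7.19 and 9.37 CPM in MHC CRE Only, so the lowest driver library lay just above the highest floxed one. It rose 1.74-fold, with a log2 fold change of 0.80 (SE 0.121, adjusted p = 0.00188), and was at most 4.65 CPM in FKl/l MCK+ and 4.63 in FKl/l MHC+. Its log2 fold change was 0.53 in batch 1 and 1.06 in batch 2, the larger in batch 2, and the difference did not pass (adjusted p = 0.154). The uncharacterised gene 6820408C15Rik (ENSMUSG00000032680; 152415587 to 152444330, plus strand) had 2.71, 3.19 and 3.32 CPM in FKl/l against 1.44, 1.75 and 2.32 in MHC CRE Only. Its fall, to 0.58 of the floxed level, had a log2 fold change of -0.79 (SE 0.137, adjusted p = 0.0116). Its libraries in FKl/l MHC+ (1.55, 2.37 and 2.82 CPM) lay across both groups. The 6820408C15Rik call was lost without MHC CRE Only 1-2 (adjusted p = 0.0506).

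The window around the Zcchc3 start is shown because it faces this neighbour (RefSeq, GRCm38.p6, chr2:152414995-152415294, minus strand). Capitals mark GGAATG, found once on either strand, and TATAAA was not found in these letters.
Zcchc3: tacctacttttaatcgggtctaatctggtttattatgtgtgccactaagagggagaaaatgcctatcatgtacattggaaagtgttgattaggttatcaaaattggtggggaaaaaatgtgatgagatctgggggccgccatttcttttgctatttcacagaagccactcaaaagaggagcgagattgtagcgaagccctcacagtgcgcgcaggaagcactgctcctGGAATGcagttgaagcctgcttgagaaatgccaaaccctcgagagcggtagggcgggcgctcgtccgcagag

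Rem1, a small GTPase of the RGK family that inhibits voltage-gated calcium channels, fell to 0.654 of the floxed level (ENSMUSG00000000359; chromosome 2, 152626951 to 152635198, plus strand). It had 5.17, 6.35 and 7.05 CPM in FKl/l and 3.68, 4.09 and 4.65 CPM in MHC CRE Only, with no overlap. The floxed genotypes with a Cre also lay above the driver group, from 5.69 CPM in FKl/l MCK+ and from 4.86 CPM in FKl/l MHC+. The log2 fold change was -0.61 (SE 0.098, adjusted p = 0.00377), and -0.72 and -0.51 within the batches. The Rem1 call was lost with FKl/l 1-1 and the driver libraries 1-3 and 2-3 left out together (adjusted p = 0.0665).

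Asxl1, a chromatin regulator that partners the histone H2A deubiquitinase BAP1, rose 1.36-fold (ENSMUSG00000042548; chromosome 2, 153345829 to 153404007, plus strand). It had 26.6, 34.5 and 43.9 CPM in FKl/l and 40.0, 47.7 and 50.5 CPM in MHC CRE Only, so the groups overlapped. The log2 fold change was 0.45 (SE 0.0831, adjusted p = 0.0242), but 0.74 in batch 1 against 0.17 in batch 2 (adjusted p of the difference = 0.0192). This batch difference was not called when MHC CRE Only 1-3, MHC CRE Only 2-3 or FKl/l 2-3 was left out. Asxl1 had 38.5, 44.8 and 48.9 CPM in FKl/l MHC+, which also carries the driver, and 29.8, 35.5 and 43.0 CPM in FKl/l MCK+. Its call was lost without any 1 of FKl/l 1-1, FKl/l 1-2, FKl/l 1-3, MHC CRE Only 1-2 or MHC CRE Only 1-3 (adjusted p 0.0506 to 0.133).

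**Figure D1:**
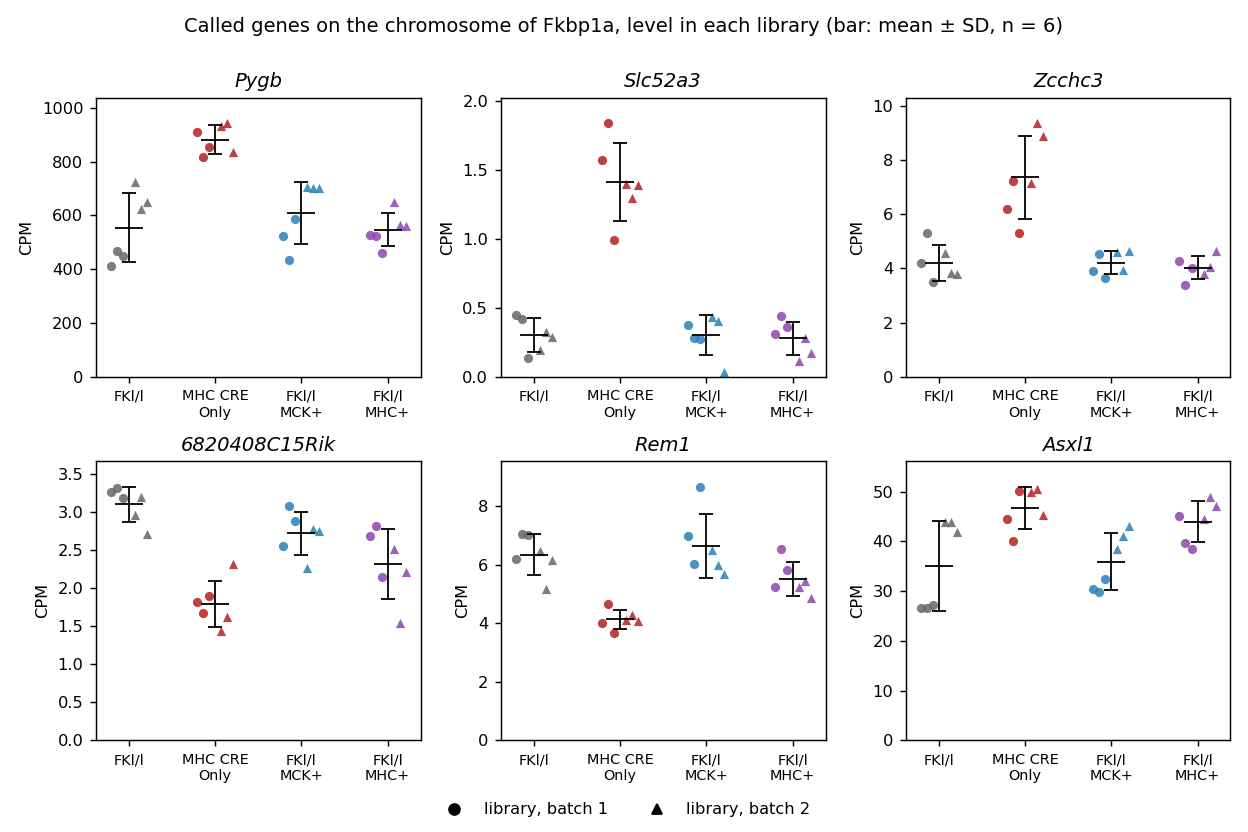
Level in CPM (y axis, linear from 0) of the 6 called genes on the chromosome of Fkbp1a, in each library of the 4 genotypes (x axis). Circles are batch 1, triangles batch 2, and bars the mean ± SD over 6 libraries. In Pygb, Slc52a3, Zcchc3 and Rem1 the MHC CRE Only libraries overlap no library of the 3 floxed genotypes, while Asxl1 in FKl/l MHC+ lies near the MHC CRE Only level.

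The called genes on chromosome 2 were counted by their distance from Fkbp1a. Pygb starts 0.756 Mb before Fkbp1a, and Slc52a3, Zcchc3, 6820408C15Rik, Rem1 and Asxl1 start 0.454, 0.873, 0.873, 1.08 and 1.80 Mb after it. Within 1 Mb of its start, 26 genes were tested, 4 were called and 5 did not overlap between the groups (19.2%, against 0.624% of all genes). The fifth non-overlapping gene, named after its values were seen, was Csnk2a1, the catalytic subunit of casein kinase 2 (log2 fold change -0.17, SE 0.0561, adjusted p = 0.173). From 1 to 2.5 Mb, 2 of 27 genes were called and 1 did not overlap. Of the 53 genes within 2.5 Mb, 16 had an unadjusted p under 0.05, where 12.9% of all genes did. From 2.5 to 5, 5 to 10 and 10 to 20 Mb, 0 of 54, 63 and 126 genes were called by edgeR's quasi-likelihood test, 3, 11 and 25 had an unadjusted p under 0.05, and 0, 0 and 2 did not overlap. Of the other 917 genes on the chromosome 0 were called (118 at an unadjusted p under 0.05) and 2 did not overlap. Of 14805 on other chromosomes or unplaced, 1 was called and 90 did not overlap. MHC CRE Only stood apart from all 18 floxed libraries in 6 genes, 4 of them within 2.5 Mb of Fkbp1a and 2 on other chromosomes.

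**Figure D2:**
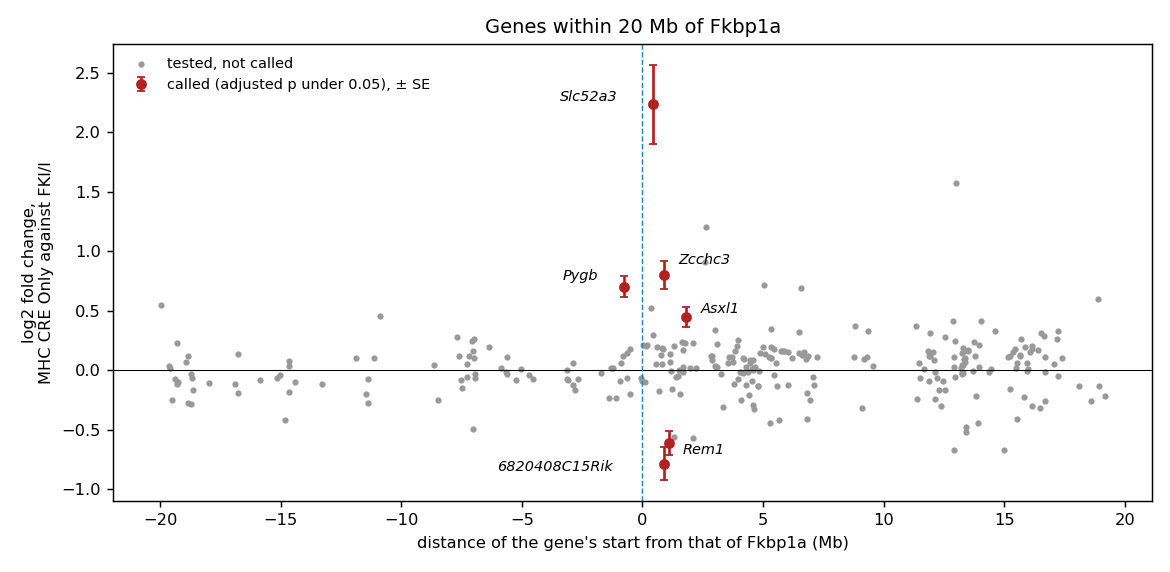
Log2 fold change of MHC CRE Only against FKl/l (y axis) by distance of a gene's start from that of Fkbp1a in Mb (x axis, negative before it), for the genes tested within 20 Mb. Red points are the 6 called genes with their SE, grey points were not called, and the dashed line is the start of Fkbp1a. All called genes lie between -0.756 and 1.80 Mb, and 4 are higher and 2 lower.

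Nt5dc2, which encodes a protein with a 5′-nucleotidase domain, was the called gene elsewhere (ENSMUSG00000071547; chromosome 14, 31131053 to 31139124, plus strand). It had 22.3, 25.2 and 28.8 CPM in FKl/l and 29.6, 32.8 and 38.1 CPM in MHC CRE Only, with no overlap. The rise of 1.31-fold (log2 fold change 0.39, SE 0.0772, adjusted p = 0.0488) lay at the threshold. It passed in 12 of 37 alternative fits, with adjusted p-values up to 0.13 when 1 library was left out. FKl/l MCK+ (24.9 to 32.5 CPM) and FKl/l MHC+ (25.0 to 32.6 CPM) lay across both groups.

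The 10 genes next in order of p did not pass. Gm36827, a predicted gene, had median levels of 12.7 CPM in FKl/l and 6.09 in MHC CRE Only (log2 fold change -0.79, SE 0.153, adjusted p = 0.0534). The other 9 had an adjusted p of 0.0775. Ddx3y, the Y-linked copy of an RNA helicase gene, had 36.0, 38.6 and 52.0 CPM in FKl/l and 25.7, 29.2 and 36.4 in MHC CRE Only, a log2 fold change of -0.46. Ndnf, a secreted factor with neurotrophic and endothelial actions, had 7.47, 9.30 and 11.6 CPM against 11.7, 14.2 and 19.9 CPM, without overlap (log2 fold change 0.66, SE 0.138). Dnm2, the dynamin of membrane fission, and Ctdsp1, a phosphatase of the RNA polymerase II tail, each had a log2 fold change of 0.27, with floxed and driver libraries that did not overlap. Fam53b and Zmiz2, the latter a transcriptional coregulator, had 0.38 and 0.45. B3galnt2, a glycosyltransferase that acts on α-dystroglycan, had 17.4 to 19.4 CPM in FKl/l and 13.6 to 15.9 in MHC CRE Only (log2 fold change -0.32). Arid4b, a chromatin protein, had -0.33, and the predicted gene Gm49891 -0.88.

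The floxed genotypes with a Cre could also be compared with each other, in libraries on neither side of the comparison above. Those libraries did enter its fit, through the spread, the batch term and the filter. Driver-side p-values are therefore not independent of the calls made here. FKl/l MHC+ and FKl/l MCK+ are both floxed and both carry a Cre, and by the study's design their promoters differ in when and how strongly Cre is made. They share no library with MHC CRE Only or FKl/l. Fkbp1a itself did not pass the test between them (log2 fold change -0.13, SE 0.116, adjusted p = 0.634). In a fit of those 12 libraries alone, 322 of 15229 genes were called (2.11%), 182 higher and 140 lower in FKl/l MHC+. Of the 322, 225 (69.9%) had the same sign in the comparison of driver with floxed hearts, against 55.2% of all 15229. There were 56 (17.4%) with the same sign and an unadjusted p under 0.05, against 7.61% of all. Without MHC CRE Only 1-3 these were 207 (64.3%, against 53.4% of all) and 36 (11.2%, against 4.94%). The median log2 fold change between driver and floxed hearts was 0.12 over the 182 and -0.02 over the 140, and 0.06 and -0.01 without that library. Asxl1 was the 1 gene called in both (log2 fold change 0.32 between the deletions, SE 0.0666, adjusted p = 0.0168). Of the 7 genes called between driver and floxed hearts, 4 had the same sign here.

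Among genes below the threshold, some levels in MHC CRE Only lay between those of FKl/l and FKl/l MHC+. Ndnf had 14.6, 16 and 18.6 CPM in FKl/l MHC+ and 5.08, 7.32 and 9.47 in FKl/l MCK+, so both αMHC-Cre genotypes were above both others. Between the deletion genotypes Ndnf rose by a log2 fold change of 1.22 (SE 0.109, adjusted p = 9.7e-06). Ucp2, a mitochondrial carrier, and Dmd, which encodes dystrophin, were added after their values were seen. Ucp2 had 91.9, 120 and 164 CPM in FKl/l, 138, 146 and 223 in MHC CRE Only and 195, 233 and 281 in FKl/l MHC+ (driver against floxed, log2 fold change 0.41, SE 0.0903, adjusted p = 0.0775). Dmd had 30.1, 35.8 and 42.2 CPM in FKl/l, 22.7, 29.0 and 30.9 in MHC CRE Only and 17.1, 20.5 and 24.7 in FKl/l MHC+ (log2 fold change -0.33, SE 0.0747, adjusted p = 0.0775). In FKl/l MCK+ the medians were 163 CPM for Ucp2 and 35.3 CPM for Dmd, so Ucp2 was not low in every genotype without the αMHC driver. The lowest Dmd value of the driver group was in MHC CRE Only 1-3. Without that library the log2 fold changes were 0.53 for Ndnf, 0.33 for Ucp2 and -0.29 for Dmd.

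**Figure D3:**
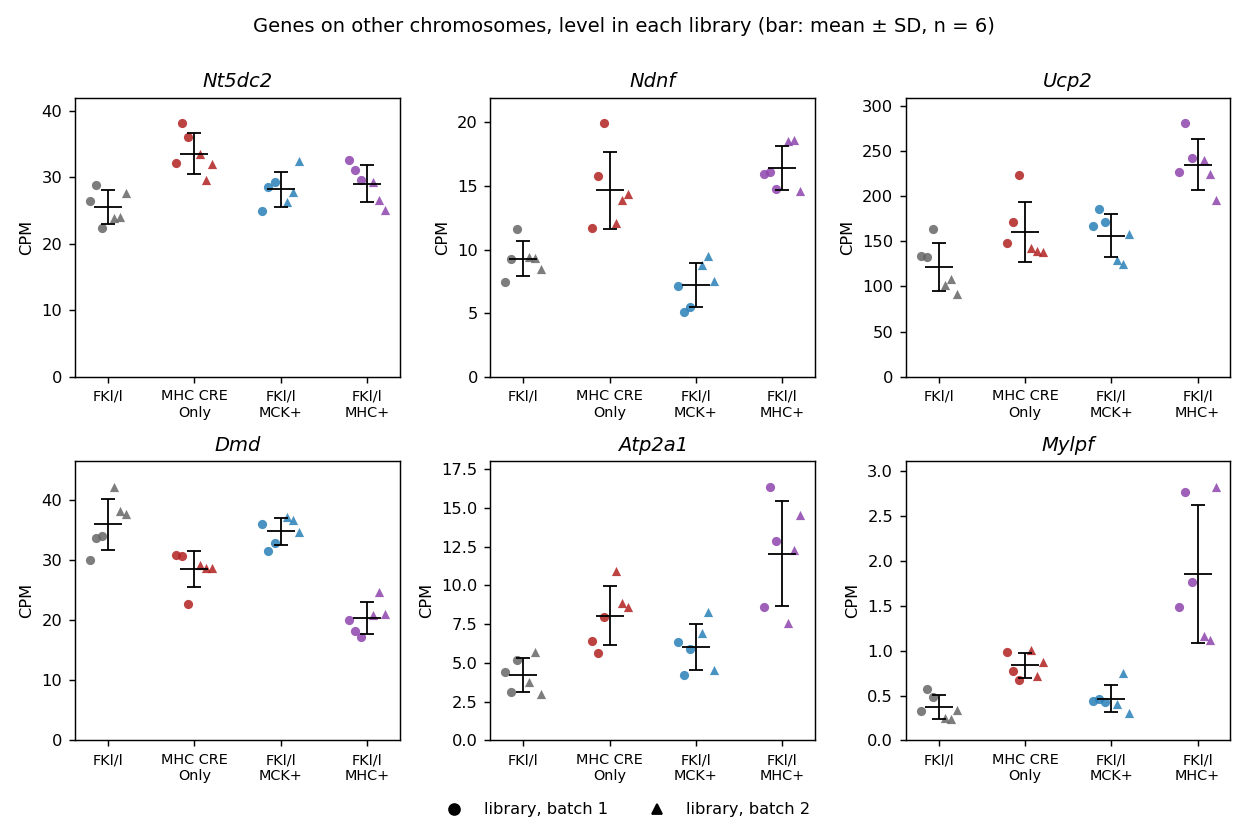
Level in CPM (y axis, linear from 0) of 6 genes on other chromosomes in each library of the 4 genotypes (x axis), with batch 1 as circles, batch 2 as triangles and bars for the mean ± SD over 6 libraries. Nt5dc2 was called between MHC CRE Only and FKl/l, and the other 5 were not. Ndnf is higher in MHC CRE Only and FKl/l MHC+ than in the other 2 genotypes, and Atp2a1, Mylpf and Dmd in MHC CRE Only have means between those of FKl/l and FKl/l MHC+.

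Some transcripts of fast skeletal muscle were among the larger differences that did not pass. The 9 skeletal muscle markers tested also hold genes abundant in these hearts. In FKl/l, Ckm had 2341 to 3600 CPM and Acta1 59.4 to 1156 CPM. Of these 9, 0 were called and 3 had an unadjusted p under 0.05, all higher, with a median log2 fold change of 0.50. Over all genes, 7.73% were higher and 5.19% lower at that level, the shares to set beside every list count below. List counts and calls are from the fit of both batches together unless a batch is named. Mylpf, a fast myosin light chain, had 0.244, 0.333 and 0.575 CPM in FKl/l and 0.671, 0.823 and 1.01 in MHC CRE Only without overlap (log2 fold change 1.18, SE 0.282, adjusted p = 0.0869). SERCA1, a calcium pump encoded by Atp2a1, had 3.00, 4.09 and 5.69 CPM against 5.62, 8.26 and 10.9 CPM (log2 fold change 0.93, SE 0.21, adjusted p = 0.0842). FKl/l MHC+ had medians of 1.62 CPM for Mylpf and 12.6 CPM for Atp2a1. The fast myosin heavy chains that define skeletal fibres were near 0 in both groups, with at most 0.139 CPM for Myh1, 0.196 for Myh2 and 0.0279 for Myh4 in a library.

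Cre can act on DNA outside loxP sites, so targets of p53 and genes of the DNA damage response were looked at as a list. None of 39 tested members was called by edgeR's quasi-likelihood test, and 7 had an unadjusted p under 0.05, all higher in MHC CRE Only, where 7.73% of all genes were higher and 5.19% lower at that level. The list's median log2 fold change was 0.03, against 0.00 over all genes, and 0.09 in batch 1 and -0.02 in batch 2. Within batch 1, 8 members were called, all higher, where 9.64% of all genes were called. In batch 2, 0 were called, and 5 were called for the difference between batches (5.57% of all genes). The summed level in batch 1 was 855 to 990 CPM in FKl/l and 1115 to 1428 in MHC CRE Only. In batch 2 it was 1276 to 1284 and 1120 to 1193. Such within-batch calls rested on single libraries, as given below. Ei24, a p53 target of the endoplasmic reticulum, had 52.5, 59.2 and 60.9 CPM in FKl/l and 63.7, 67.4 and 75.3 CPM in MHC CRE Only, without overlap (log2 fold change 0.24, SE 0.0599, adjusted p = 0.0939). Sesn2, a stress-induced inhibitor of mTORC1 signalling, had medians of 5.83 and 7.74 CPM (log2 fold change 0.38, SE 0.105, adjusted p = 0.127). Apoptosis genes had 1 of 29 members higher and 1 lower at an unadjusted p under 0.05. Cell cycle genes had 0 higher and 2 lower of 31, with a median of -0.12.

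The unfolded protein and integrated stress response had the most members below an unadjusted p of 0.05, with 0 called. Of 30 tested, 13 were higher and 2 lower at that level (50%, against 12.9% of all genes), and the list's median was 0.16. Hspa5, the endoplasmic reticulum chaperone BiP, and Manf, a secreted stress-responsive factor of the same compartment, were named after their values were seen. Hspa5 averaged 400 ± 91.2 CPM in FKl/l and 470 ± 21.1 in MHC CRE Only (SD over the 6 libraries; log2 fold change 0.26, SE 0.0853, adjusted p = 0.176). Manf averaged 64.2 ± 14 and 80.7 ± 11.8 CPM (log2 fold change 0.34, SE 0.0973, adjusted p = 0.138). The stress transcription factor CHOP, encoded by Ddit3, was on the other side, with medians of 8.08 and 6.94 CPM (log2 fold change -0.35, SE 0.0849, adjusted p = 0.09). The list's median was 0.23 in batch 1 and 0.06 in batch 2, and for Hspa5 the values were 0.54 and -0.02. The summed level in FKl/l was 1808 to 1991 CPM in batch 1 and 2165 to 2312 in batch 2, while MHC CRE Only lay between 2222 and 2349 in both.

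Heat shock genes had 1 member higher and 3 lower of 23 at an unadjusted p under 0.05, and immediate early genes 0 higher and 2 lower of 24. In the interferon response 4 of 33 were lower at that level (12.1%, against 12.9% of all genes), with a median of -0.22. The summed interferon level was 1453 CPM in FKl/l 2-2 against 294 to 392 in the other FKl/l libraries and 275 to 385 in MHC CRE Only, so 1 floxed library was high.

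Genes of contraction and rhythm gave no call in the fit of both batches together. Batch 1 calls were 6 higher and 2 lower for calcium handling, 12 and 2 for the sarcomere and 8 and 0 for ion channels. Within batch 2 there were 0. The difference between batches was called in 8, 7 and 7 members. Of all genes, 9.64% were called in batch 1 and 5.57% for the difference, and these calls rested on single libraries. Calcium handling genes had 2 members higher and 2 lower of 30 at an unadjusted p under 0.05 (13.3%, against 12.9% of all genes). Their median was -0.01. Trdn, which encodes triadin of the calcium release complex, had 134, 204 and 283 CPM in FKl/l and 111, 117 and 232 in MHC CRE Only (log2 fold change -0.45, SE 0.108, adjusted p = 0.0896). Sarcomere and Z-disc genes had 6 higher and 2 lower of 30 (26.7%). Nexn, the Z-disc protein nexilin, had medians of 303 and 233 CPM (log2 fold change -0.41, SE 0.127, adjusted p = 0.165). Ion channels and junction proteins had 7 higher and 1 lower of 34 (23.5%). Hcn2, a pacemaker channel, had 24.9, 37.0 and 48.0 CPM against 39.5, 55.6 and 70.8 CPM (log2 fold change 0.58, SE 0.15, adjusted p = 0.108). Kcnq1, a repolarising potassium channel, had a log2 fold change of 0.26 (adjusted p = 0.168). The fetal and stress program of cardiomyocytes had 3 higher and 0 lower of 26 (11.5%). Lcn2, a secreted lipocalin, had medians of 1.27 and 2.14 CPM (log2 fold change 0.94, SE 0.253, adjusted p = 0.111). The iron hormone hepcidin, from Hamp, had 12.5 and 16.2 CPM (log2 fold change 0.34, adjusted p = 0.217).

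In metabolism, Pygb was the 1 called member of 33 genes of glucose uptake, glycolysis and glycogen, which had 5 higher and 2 lower at an unadjusted p under 0.05. Shares at that level were 21.2% here, 11.4% for fatty acids, 13.3% for pyruvate oxidation and 16.7% for branched-chain breakdown, against 12.9% of all genes. Hk1, the hexokinase that starts glycolysis in most tissues, was named after its values were seen. It averaged 209 ± 30.9 CPM in FKl/l and 271 ± 43.3 in MHC CRE Only (SD over the 6 libraries; log2 fold change 0.38, SE 0.088, adjusted p = 0.0775). Fatty acid genes had 2 higher and 2 lower of 35, with Crat, carnitine acetyltransferase, at medians of 334 and 384 CPM (log2 fold change 0.24, adjusted p = 0.128). Genes of pyruvate oxidation, the TCA cycle and ketone use had 2 higher and 2 lower of 30. Branched-chain amino acid breakdown had 0 higher and 4 lower of 24, a median of -0.09, and Mccc2, a leucine pathway carboxylase subunit, at 28.1, 29.8 and 30.6 CPM against 22.4, 25.3 and 26.8 CPM, without overlap (log2 fold change -0.25, SE 0.0663, adjusted p = 0.107).

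Nuclear-encoded oxidative phosphorylation had 0 higher and 2 lower of 49, mitochondrially encoded genes 0 and 3 of 15, and cytosolic ribosomal proteins 0 and 5 of 72. These shares were 4.08%, 20% and 6.94%, against 12.9% of all genes. The circadian clock had 1 higher and 1 lower of 21. In the FKBP family, 0 of 15 were called, with Fkbp10, a collagen chaperone, at 22.8, 24.6 and 30.8 CPM in FKl/l and 29.6, 34.0 and 35.4 in MHC CRE Only (log2 fold change 0.36, SE 0.0816, adjusted p = 0.0775). The median of Fkbp10 was 24.1 CPM in FKl/l MHC+ and 31.1 CPM in FKl/l MCK+.

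Extracellular matrix genes had 9 members higher and 1 lower of 46 at an unadjusted p under 0.05 (21.7%, against 12.9% of all genes). Of these genes 0 were called, and the median was 0.11 (0.12 in each batch). Loxl1, a collagen and elastin cross-linking enzyme, had medians of 52.9 and 64.4 CPM (log2 fold change 0.24, SE 0.0853, adjusted p = 0.231). Col6a3, a chain of collagen VI, had 25.7 and 33.3 CPM (log2 fold change 0.29, SE 0.108, adjusted p = 0.238). Among cell type markers, 0 were called in any list. Smooth muscle and pericyte markers had 3 higher and 1 lower of 16, with the pericyte receptor Pdgfrb at medians of 71.8 and 85.0 CPM (log2 fold change 0.22, SE 0.0575, adjusted p = 0.104). Fibroblast markers had 1 higher and 1 lower of 18, endothelial 0 and 2 of 18, macrophage 0 and 0 of 21, lymphocyte 0 and 2 of 14, adipocyte 1 and 0 of 16, and erythroid 0 and 0 of 8. Cardiomyocyte markers had 0 and 1 of 10, atrial 0 and 1 of 12, mesothelial 0 and 0 of 11, neuronal 1 and 0 of 14, airway 1 and 0 of 11, and thymus and thyroid 0 and 0 of 3. Sex-linked transcripts had 0 and 2 of 6. In whole hearts, fewer cells of a type and less RNA per cell cannot be told apart.

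**Figure D4:**
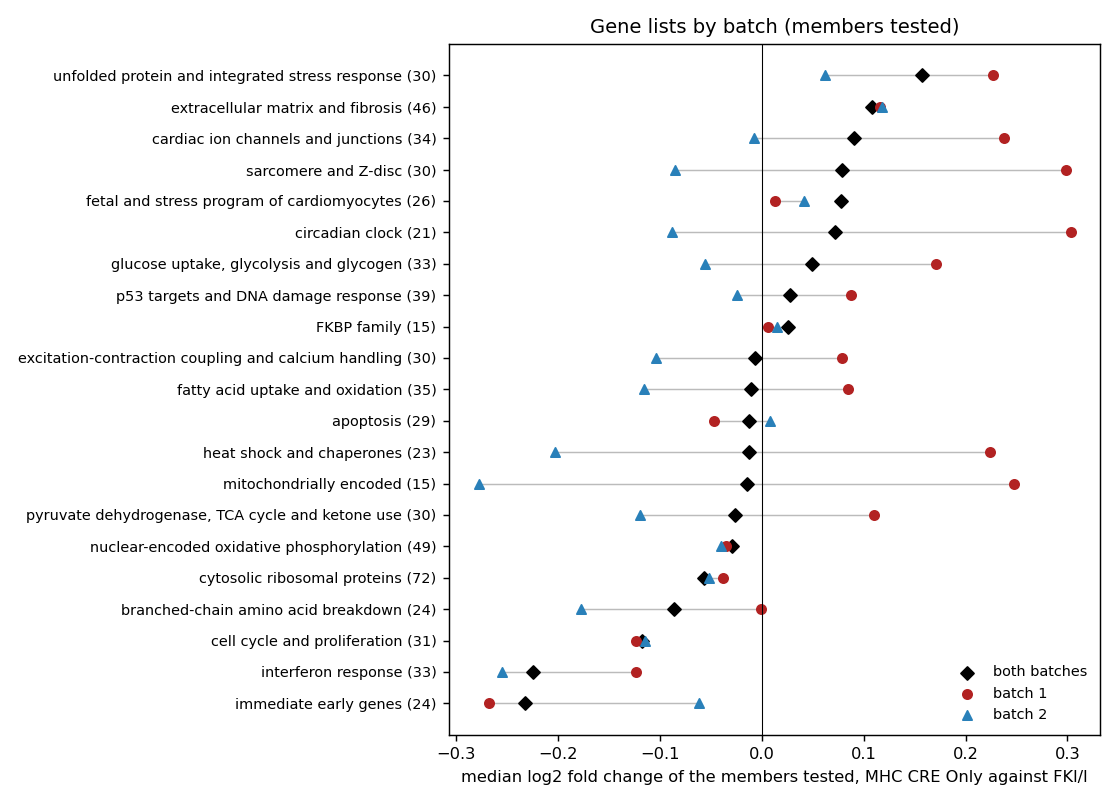
Median log2 fold change of MHC CRE Only against FKl/l (x axis) over the tested members of each pathway list (y axis, members tested in brackets), for both batches together (black diamonds), batch 1 (red circles) and batch 2 (blue triangles). Grey lines join the batches. The medians of extracellular matrix genes lie close together, while those of sarcomere genes are 0.30 in batch 1 and -0.09 in batch 2.

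The comparison gave different results in the 2 batches. In batch 1, 3 libraries against 3, 1544 genes were called (9.64%), 1176 higher and 368 lower in MHC CRE Only. In batch 2, 1 gene was called (0.00624%), Zcchc3, with 1910 at an unadjusted p under 0.05. The difference between the batches was itself called in 892 genes (5.57%), 690 of them lower in batch 2 than in batch 1, and in 851 the sign was opposite. Ccng1, the p53 target cyclin G1, had log2 fold changes of 0.62 and -0.33, and Klf15, a metabolic transcription factor of cardiomyocytes, 0.71 and -0.35. Dsg2, a desmosomal cadherin, had 0.39 and -0.30, Clic4 0.45 and -0.19, and Bltp2 0.29 and -0.23. The adjusted p of the difference was 0.0192 for each of these 5, which were named by smallest p. The highest driver library of Ccng1 and Clic4 was MHC CRE Only 1-3.

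These counts rested on single libraries. The 892 became 0 without MHC CRE Only 1-3, MHC CRE Only 2-3 or FKl/l 2-3, with 2985, 3017 and 3242 genes still at an unadjusted p under 0.05. They became 2 without FKl/l 1-3, 206 without FKl/l 2-1 and 424 without MHC CRE Only 2-1, 579 without FKl/l 2-2 and 586 without MHC CRE Only 2-2. The 1544 of batch 1 became 139 without MHC CRE Only 1-3 and 653 without FKl/l 1-3. With the 6 libraries of 1 batch alone in the fit, 17 genes were called in batch 1, 2 of them among the 7, and 79 in batch 2, 3 of them among the 7. The 7 called genes did not change sign between batches, but libraries of both batches had chosen them.

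**Figure D5:**
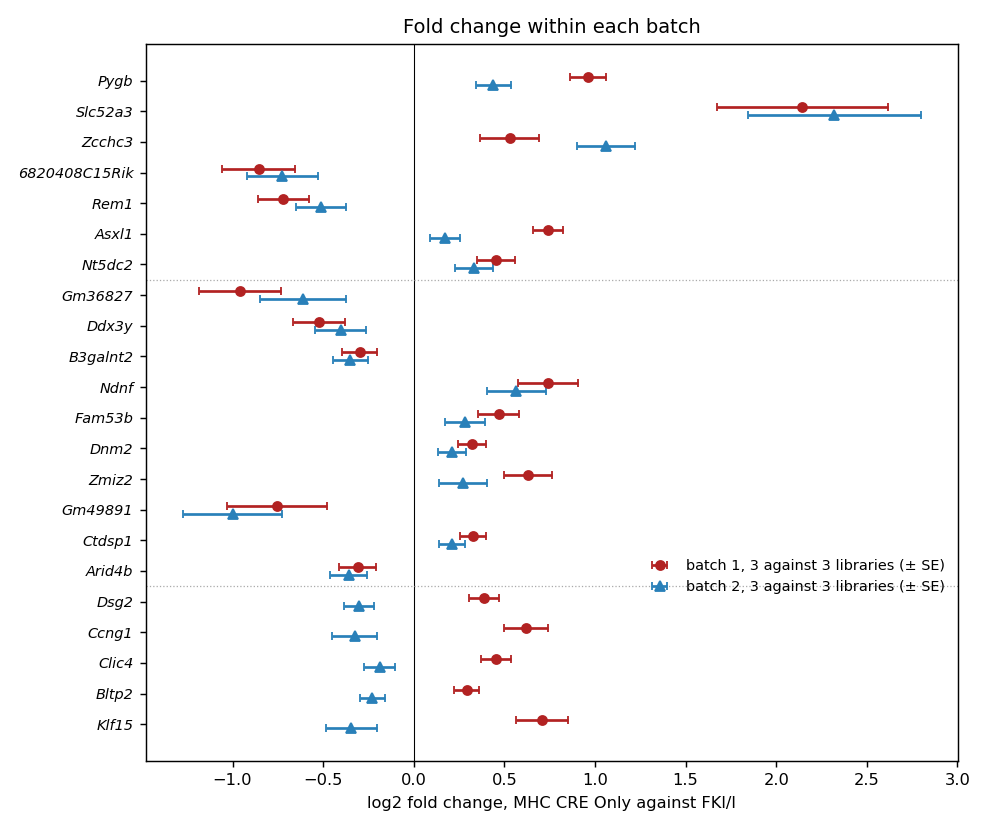
Log2 fold change of MHC CRE Only against FKl/l (x axis) within batch 1 (red circles) and batch 2 (blue triangles), each with its SE from the fit with a term for genotype in each batch. Dotted lines divide the genes (y axis) into the 7 called, the 10 next by p and 5 called for the difference between batches. The first 17 genes have 1 sign in both batches, and the last 5 have opposite signs.

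The count of 7 also moved with the libraries and the tool. It was 17 without MHC CRE Only 1-1, 4 without MHC CRE Only 1-2 and 13 without FKl/l MHC+ 2-2. With FKl/l 1-1 and the driver libraries 1-3 and 2-3 left out it was 4, all among the 7: Pygb, Slc52a3, Zcchc3 and 6820408C15Rik. DESeq2 called 169 genes, with Pygb, Zcchc3, Rem1, 6820408C15Rik, Asxl1 and Nt5dc2 among them and no adjusted p for Slc52a3. That is more than the 53 genes tested within 2.5 Mb of Fkbp1a, so the DESeq2 calls were not confined to that window. With the mean log2 level of Y-linked transcripts as a further term, 5 genes were called. Pygb was the 1 of them among the 7 (adjusted p = 0.0224 in that edgeR fit). The summed Y-linked level did not overlap between the groups, so the term shares part of the group difference and weakens its test. In that fit the log2 fold changes of Slc52a3, Zcchc3, Rem1 and 6820408C15Rik were 2.21, 0.82, -0.64 and -0.86, with adjusted p-values of 0.0665, 0.0665, 0.0665 and 0.0913.

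In the authors' deposited table of the same comparison, 1 of 16363 genes had an adjusted p under 0.05. This was Slc52a3, with a log2 fold change of 2.28 and an adjusted p of 0.0249 in the authors' deposited table. Pygb had 0.70 and 0.134 there, and Rem1 -0.61 and 1. In the authors' deposited table the statistic was 0 for changes smaller than 0.263 on the log2 scale, a minimum fold of 1.2, so its p-values answer a stricter question.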

How the data were processed

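RNA from whole mouse hearts was sequenced in 24 libraries, 4 genotypes with 6 libraries each, in 2 batches. The authors deposited whole-number read counts per Ensembl gene, not normalized, with depths of 27799403 to 40412640 counts in genes. Per the submitters' processing notes, STAR, RSEM, Trim Galore, FastQC and bcl2fastq 2.17 were used, with mm10 as the build; the roles of these tools, the gene annotation and whether counting used strand are unstated in the labels and headers. If the counts are rounded RSEM estimates, reads that match several genes were divided between them, and overlapping or antisense genes may share reads. Per the file headers, the authors' deposited table of this comparison holds log2 fold changes, mean log2 levels, a statistic (score), p-values and adjusted p-values.

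Of 56384 rows, 3660 are named by a transcript only; they held 1.22 to 3.24% of the counts of the 12 libraries compared and were left out. Genes were filtered with filterByExpr by genotype and scaled by TMM. Genes were tested by the quasi-likelihood F-test of edgeR 4.0.16 in R 4.3.3 (robust, 2-sided) on all 24 libraries with terms for genotype and batch, so that genotypes share 1 estimate of the spread, with Benjamini-Hochberg adjustment over all genes tested. The interaction fit had a term for genotype in each batch, and FKl/l MHC+ against FKl/l MCK+ was fitted on its own 12 libraries. The steps were run on simulated counts with known changes in MHC CRE Only. Those counts held no batch effect, interaction or outlying library, so they do not assess the shifts described above. Alternatives were DESeq2 1.42.0, limma voom (limma 3.58.1), other scalings, filters and terms, and leaving libraries out. No 2 libraries of a group were alike within counting noise.

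The comparison, the 37 gene lists (931 entries, 899 in the count table; the histone list had none) and the rule for naming genes were chosen with earlier results of these data known. The rule takes Fkbp1a, Fkbp1b and Myh6, called genes by fold (at least 5 CPM) or nearest to Fkbp1a within 20 Mb, the 10 next by p, up to 6 by the interaction, and up to 3 called or 2 other members a list; genes outside it are said to be named after their values were seen. A gene the rule also takes is not reported here. Positions are from GENCODE M21 (GRCm38), and promoter windows from RefSeq (GRCm38.p6), which held both genes shown.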

Additional observations from a re-analysis of the deposited data

Results flagged for a closer look

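Sets of 6 libraries were looked at, 124 in all, for the genes named and 4 library measures in each group. In 10 sets, 1 library lay far from the other 5 by Dixon's criterion. Its rate of about 1 in 20 holds for independent sets from 1 normal population. The sets here share libraries, mix 2 batches and include genes named by their values, so 10 of 124 cannot be read against that rate. MHC CRE Only 1-3 was the library apart for 5 genes. It was low for Fkbp1a, at 81.8 CPM against 122 in the next library, and for Dmd, at 22.7 against 28.7. It was high for Ccng1 (675 CPM against 532), Hk1 (357 against 265) and Clic4 (350 against 293). Gm49891 was low in MHC CRE Only 2-3 (0.644 CPM against 1.51), Fkbp10 low in MHC CRE Only 2-2 (29.6 against 33.6) and Kcnq1 low in FKl/l 1-1 (23.7 against 31.2). The summed level of airway markers was high in MHC CRE Only 2-3 (1306 CPM against 99.8) and in FKl/l 1-1 (528 against 11).

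The difference between driver and floxed hearts was smaller in batch 2 than in batch 1 for 2 of the 7 called genes. The log2 fold change of Pygb differed by -0.52 (adjusted p = 0.0296 for the interaction in edgeR) and that of Asxl1 by -0.57 (adjusted p = 0.0192). Neither difference was called when MHC CRE Only 1-3, MHC CRE Only 2-3 or FKl/l 2-3 was left out, since 0 genes passed in those fits.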

How the results depend on the processing

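The count of 7 genes was 15 with no filter on low counts, 169 by DESeq2, 4 with the 12 libraries of the 2 groups alone, 4 without the batch term, 2 when tested against a fold of 1.2, and 4 with FKl/l 1-1 and the driver libraries 1-3 and 2-3 left out. It was 17 with batch 1 alone and 79 with batch 2 alone, 8 by limma voom and 6 with RLE size factors. Leaving out 1 library gave 4 to 17. The interaction count of 892 was 353 with 12 libraries and 0 to 1303 when 1 library was left out. Within batch 1 the count of 1544 was 17 with that batch alone in the fit and 139 to 1869 without 1 library, and within batch 2 the count of 1 was 79 and 0 to 2; these within-batch alternatives, and the same-sign shares of the deletion calls without libraries in doubt (64.3% without MHC CRE Only 1-3, 65.8% without the 3), were chosen after seeing the data. FKl/l MHC+ against FKl/l MCK+ gave 322 genes, 695 by DESeq2 and 345 in the fit of 24 libraries. The cause of these shifts was not tested.

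Replicate labels are shared by the groups and are not said to pair samples. Same-labelled libraries did not deviate together (correlations from -0.19 to 0.06 over 6 pairs, 0 over 0.1, and 1 of 6 highest with its own number). With the replicate block in place of batch, 6 genes were called between driver and floxed hearts, 5 of them among the 7, and 156 between the deletion genotypes. Fkbp1a, not called, turned sign without the 3 libraries named above (0.0169) and in batch 2 alone (0.0397), and its log2 fold change ranged from -0.126 to 0.0195 when 1 library was left out, with the other sign only without MHC CRE Only 1-3. Fkbp1b turned in batch 1 alone (-0.194), Hspa5 in batch 2 alone (-0.00994) and Myh6 with the Y-linked term (0.0589), none of them called in the fit of 24 libraries. Over the alternative fits, Pygb was called in 36 of 37, Slc52a3 in 34 of 36, Zcchc3 in 33, Rem1 in 32, 6820408C15Rik in 31 and Asxl1 in 25 of 37. Of the list medians recomputed, 1256 moved by at most 1 SD and 75 by more. That SD is the spread of a list's median level between libraries of the same group and batch, not the error of the group difference. It ran from 0.0295 for the FKBP family to 2.33 for airway markers, so the bar was wide for some lists. Slc52a3 rests on 6 to 61 counts a library in the 12 compared.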
